A study of Mus musculus with 5 samples.

Results

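Integrins, laminins, collagens and cadherins are the genes by which epithelial cells hold to the matrix and to each other. They were chosen by symbol alone: integrin alpha and beta chains, laminin chains, collagen chains, cadherins, protocadherins, desmosomal cadherins with desmoplakin, nidogens and perlecan. The rule picked 85 of 12293 genes in the table. One of these, Col4a3bp, matches only by its name, since it encodes a ceramide transfer protein, and Itgb1 encodes CD29, on which the cells were sorted. The remaining 83 genes are counted below, and 63 of them had a mean FPKM (fragments scaled to transcript length and library size) of at least 1 over the 5 libraries and were tested.

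The study set 3 sorted populations of mouse mammary epithelial cells side by side. All came from adult virgin mice whose ovaries had been removed and that had carried hormone pellets for 14 days, and every population was lineage-negative and CD24+. Luminal-derived basal cells (LdBC), which were CD29hi and GFP+, gave 2 libraries. Basal cells, which were CD29hi and TdTomato+, gave 2 libraries, and luminal cells, which were CD29low and GFP+, gave 1. Each library was made from about 50 cells by a modified Smart-seq2 protocol, in which the RNA is reverse-transcribed and amplified by PCR. The labels name neither the hormones in the pellets nor the driver of the reporters, and nothing in them tells if libraries with the same label came from separate animals. All p-values below therefore weigh group differences against the spread between libraries, which may be technical.

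Integrins are membrane receptors made of an alpha and a beta chain, and the pair decides which matrix protein is bound. Laminins are trimers of an alpha, a beta and a gamma chain that assemble with type IV collagen, nidogen and perlecan into the basement membrane, the sheet on which the mammary epithelium rests. Basal cells touch that sheet and supply many of its parts. Classical cadherins join neighbouring cells through their catenins, with E-cadherin (Cdh1) found across the epithelium and P-cadherin (Cdh3) in its basal layer, and desmosomal cadherins join cells through desmoplakin to keratin filaments.

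The libraries differed in how many genes were listed at 0. Of the 84 family members (Itgb1 included), 37 and 18 stood at 0 in LdBC replicates 1 and 2, 8 and 15 in basal replicates 1 and 2, and 54 in the luminal library. Over all 12293 genes the shares at 0 were 25.2% and 13.6% for the LdBC libraries, 10.7% and 11.9% for the basal libraries and 34.6% for the luminal library. The luminal library listed 162 genes at 0 that had an FPKM of 10 or more in each other library, LdBC replicate 1 listed 26, and the other 3 libraries listed 0 to 5. A single value of 0 in these libraries is therefore not read as absence. Itgb1 had an FPKM of 63.7 and 83.7 in the LdBC libraries, 77.3 and 93.4 in the basal libraries and 22.9 in the luminal library, the order set by the gate. The 8 basal marker genes (keratins such as Krt5 and Krt14, contractile genes and Trp63) summed to an FPKM of 1480 and 2700 in the LdBC libraries, 11300 and 9270 in the basal libraries and 20.7 in the luminal library. The 8 luminal marker genes (such as Krt8, Krt18 and Elf5) summed to 29500 and 27700 in the LdBC libraries, 1200 and 941 in the basal libraries and 24900 in the luminal library. By these markers the cells labelled luminal-derived basal had high levels of luminal genes and lower levels of basal genes than basal cells did.

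Most genes of the families that differed between LdBC and basal cells were lower in LdBC, and a few epithelial adhesion genes were higher. No member was called by limma (adjusted p under 0.05 over all 10626 genes tested). That test called 0.00941% of all genes, 1 gene (Krt18, a luminal keratin). At an unadjusted p under 0.05, 4 members were higher and 18 lower in LdBC, against 12.9% of all genes higher and 7.12% lower. A second, untested rule counted members whose groups did not overlap and whose means differed by at least 1 on the log2(FPKM + 1) scale. By that rule 4 of 63 members were higher in LdBC (6.35%, against 17.9% of all genes) and 29 were lower (46%, against 13% of all genes). The median difference was -1.11 over the members and 0.20 over all genes. A gene that is high in one group only passes the filter through that group, so these counts are a description. Among the 43 members with a mean FPKM of at least 1 in both groups, a filter chosen after seeing the data, 3 were higher (6.98%, against 17.7% of all genes) and 18 lower (41.9%, against 8.28%). There the median difference was -0.98 over the members and 0.22 over all genes. Without LdBC replicate 1, the library with more zeros, 11 members were higher by the fold rule and 28 lower, against 28.3% and 16.2% of all genes.

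**Figure D1:**
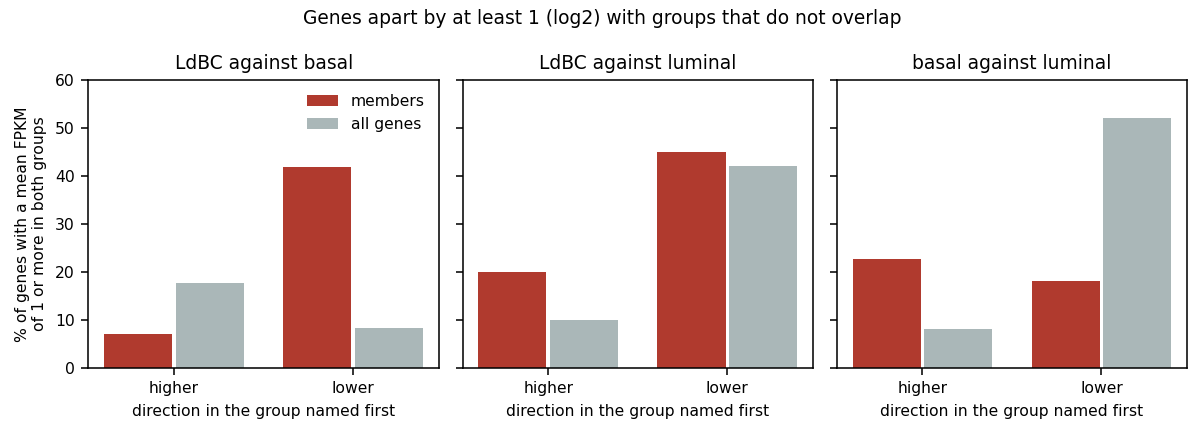
Share of genes whose groups do not overlap and whose means differ by at least 1 on the log2(FPKM + 1) scale, in percent of the genes with a mean FPKM of at least 1 in both groups (y axis), higher or lower in the group named first (x axis). Red bars are members and grey bars all genes. In LdBC against basal the members' share is 6.98% higher and 41.9% lower, against 17.7% and 8.28% of all genes.

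Promoter windows of 4 members from both ends of the range are printed here because their transcripts differed between LdBC and basal cells without overlap and RefSeq holds a window for each (2 for Itgb6 and for Lamb3, of which the first listed is printed). Itgb6 and Itgav encode a receptor pair and were higher in LdBC. Lamb3 and Itga5 encode a laminin chain and a fibronectin receptor chain and were lower. The sequences are RefSeq's, on build GRCm38.p6, and are read 5′ to 3′ along the gene's strand. Each ends just before a RefSeq start of the gene, except that of Itgb6. The Itgb6 window was cut to 210 bases, because its bases nearest the RefSeq start lie within the GENCODE gene. The printed sequences lie at chr2:60722644-60722853 (minus strand) for Itgb6, chr2:83724147-83724396 (plus strand) for Itgav, chr1:193301744-193301993 (plus strand) for Lamb3, within the gene span of its longer GENCODE models, and chr15:103366792-103367041 (minus strand) for Itga5.
Itgb6: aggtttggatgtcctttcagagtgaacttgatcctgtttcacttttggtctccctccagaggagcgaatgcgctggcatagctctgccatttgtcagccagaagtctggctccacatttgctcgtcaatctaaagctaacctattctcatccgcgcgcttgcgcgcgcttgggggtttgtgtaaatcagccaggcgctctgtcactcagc
Itgav: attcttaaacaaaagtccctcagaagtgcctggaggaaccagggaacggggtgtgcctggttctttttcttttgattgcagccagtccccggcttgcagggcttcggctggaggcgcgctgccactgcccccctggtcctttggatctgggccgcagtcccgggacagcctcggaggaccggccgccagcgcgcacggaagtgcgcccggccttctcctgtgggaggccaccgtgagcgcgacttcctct
Lamb3: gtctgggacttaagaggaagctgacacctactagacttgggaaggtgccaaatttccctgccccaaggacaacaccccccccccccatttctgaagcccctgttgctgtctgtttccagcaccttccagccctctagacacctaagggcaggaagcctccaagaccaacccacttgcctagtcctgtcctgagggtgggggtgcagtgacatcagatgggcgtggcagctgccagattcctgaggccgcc
Itga5: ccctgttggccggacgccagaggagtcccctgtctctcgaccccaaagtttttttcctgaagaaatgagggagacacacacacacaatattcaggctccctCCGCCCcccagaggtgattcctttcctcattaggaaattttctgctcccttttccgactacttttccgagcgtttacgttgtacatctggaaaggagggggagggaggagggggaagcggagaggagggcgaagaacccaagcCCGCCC
Capitals mark matches, on either strand, to 5 short motifs: TGANTCA (the AP-1 motif), CACCTG (an E-box), GGGCGG (the GC box), CCAAT and CATTCC (a TEAD motif). Of the 4 printed windows, the Itga5 one held matches, to the GC box at positions 102 and 245 from its left end. The second RefSeq window of Lamb3, not printed, held the E-box and the TEAD motif. Itgb6 had an E-box outside its printed bases, either in the part cut off or in its second window. Of all 32851 RefSeq promoter windows, 32.7% held a GC box, 33.8% a CCAAT box, 17.2% the E-box, 12.6% the TEAD motif and 6.75% the AP-1 motif. RefSeq held 51 windows for 45 members. Of these windows 24, from 22 members, held a GC box, 16 a CCAAT box and 10 the E-box. The TEAD motif was in 8 windows and the AP-1 motif in 1, that of Col6a1. A match describes letters and not a bound site.

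Among the integrin chains, LdBC had more Itgav and Itgb6 and less of several alpha chains than basal cells. Itgav, whose product pairs with several beta chains to bind matrix proteins that carry the RGD motif (chromosome 2, 83724397 to 83806916 on GRCm38), had an FPKM of 156 and 111 in the LdBC libraries, 50.1 and 50.4 in the basal libraries and 47.1 in the luminal library. Both LdBC libraries lay above the other 3, which were close to each other. The difference from basal cells was 1.37 (SE 0.26, limma adjusted p = 0.129). With either other scaling it was 0.98, just short of the 1 that the fold rule needs. Itgb6, whose product pairs with that of Itgav and can activate latent TGF-beta (chromosome 2, 60598292 to 60722643), had an FPKM of 15.1 and 18.4 in the LdBC libraries, 1.32 and 1.09 in the basal libraries and 37.8 in the luminal library. LdBC stood between basal and luminal cells, with no overlap. Its difference from basal cells was 3.00 (SE 0.41, limma adjusted p = 0.123).

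The chains that can pair with the Itgav product were ordered differently in the 3 populations. In both LdBC libraries the order by FPKM was Itgb1, Itgb6, Itgb5, Itgb8 and Itgb3. In both basal libraries Itgb1 was again first and Itgb6 was last. In luminal cells Itgb6 was first and made up 62.3% of the summed FPKM of these 5 chains. The other beta chains overlapped or differed by less than 1 between LdBC and basal cells. Itgb4, the hemidesmosome chain, had an FPKM of 11.9 and 7.6 in the LdBC libraries, 7.4 and 3.13 in the basal libraries and 0.228 in the luminal library, and the difference from basal cells was 0.84 (SE 0.63, limma adjusted p = 0.551). Itgb5 had 13.5 and 9.68 in the LdBC libraries, 9.79 and 5.3 in the basal libraries and 0 in the luminal library. Itgb8, Itgb3 and Itgb2 stayed at or below an FPKM of 8.21 in every library, with LdBC and basal libraries overlapping. In all, 1 of 6 tested beta chains was higher in LdBC than in basal cells by the fold rule and 0 were lower. The 16.7% higher was near the 17.9% of all genes, of which 13% were lower.

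Of 11 tested alpha chains, 1 was higher in LdBC than in basal cells by the fold rule and 6 were lower. Over all genes 17.9% were higher and 13% lower. Itga3, a laminin receptor chain (chromosome 11, 95044474 to 95076801), had an FPKM of 7.23 and 6.0 in the LdBC libraries, 24.1 and 27.9 in the basal libraries and 34.0 in the luminal library. LdBC was the lowest of the 3 populations, with a difference from basal cells of -1.83 (SE 0.32, limma adjusted p = 0.127). Itga5, the alpha chain of the main fibronectin receptor (chromosome 15, 103344286 to 103366763), had an FPKM of 0 and 1.1 in the LdBC libraries, 9.14 and 8.99 in the basal libraries and 14.8 in the luminal library. Here too LdBC was lowest, and the difference from basal cells was -2.80 (SE 0.60, limma adjusted p = 0.142). Itga8 and Itga9, which bind nephronectin and tenascin among other ligands, and Itga1, a collagen receptor chain, were listed at 0 in the luminal library and reached an FPKM of at most 2.11 in LdBC, against 4.31 to 10.5 in basal cells. Their differences between LdBC and basal cells were -2.31 (SE 0.74), -1.99 (SE 0.75) and -2.15 (SE 0.52), with limma adjusted p-values of 0.223, 0.275 and 0.16. Itga2b, the platelet fibrinogen receptor chain, was the sixth lower gene, at 0 and 0.372 in the LdBC libraries and 2.54 and 2.4 in the basal libraries.

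Itga6, the laminin receptor chain often used to sort mammary basal cells, had an FPKM of 23.4 and 48.1 in the LdBC libraries, 66.8 and 57.8 in the basal libraries and 25.9 in the luminal library. Both LdBC libraries were below both basal ones, but the difference was -0.87 (SE 0.44, limma adjusted p = 0.392). Itgav exceeded Itga6 in LdBC, with FPKM ratios of 6.66 and 2.31, whereas the ratios in basal cells were 0.75 and 0.873. Itga2, a collagen receptor chain, had 4.63 and 4.66 in the LdBC libraries, 4.8 and 1.77 in the basal libraries and 6.14 in the luminal library, so LdBC and basal cells overlapped. Itga10 was listed at 0 in the LdBC and basal libraries and had 5.83 in the luminal library. Itga7 had 0 and 3.29 in the LdBC libraries, 3.31 and 0 in the basal libraries and 19.3 in the luminal library. The summed FPKM of the 13 alpha chains was alike in the libraries, at 192 and 179 in the LdBC libraries, 187 and 168 in the basal libraries and 153 in the luminal library, with Itgav making up much of it in LdBC.

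**Figure D2:**
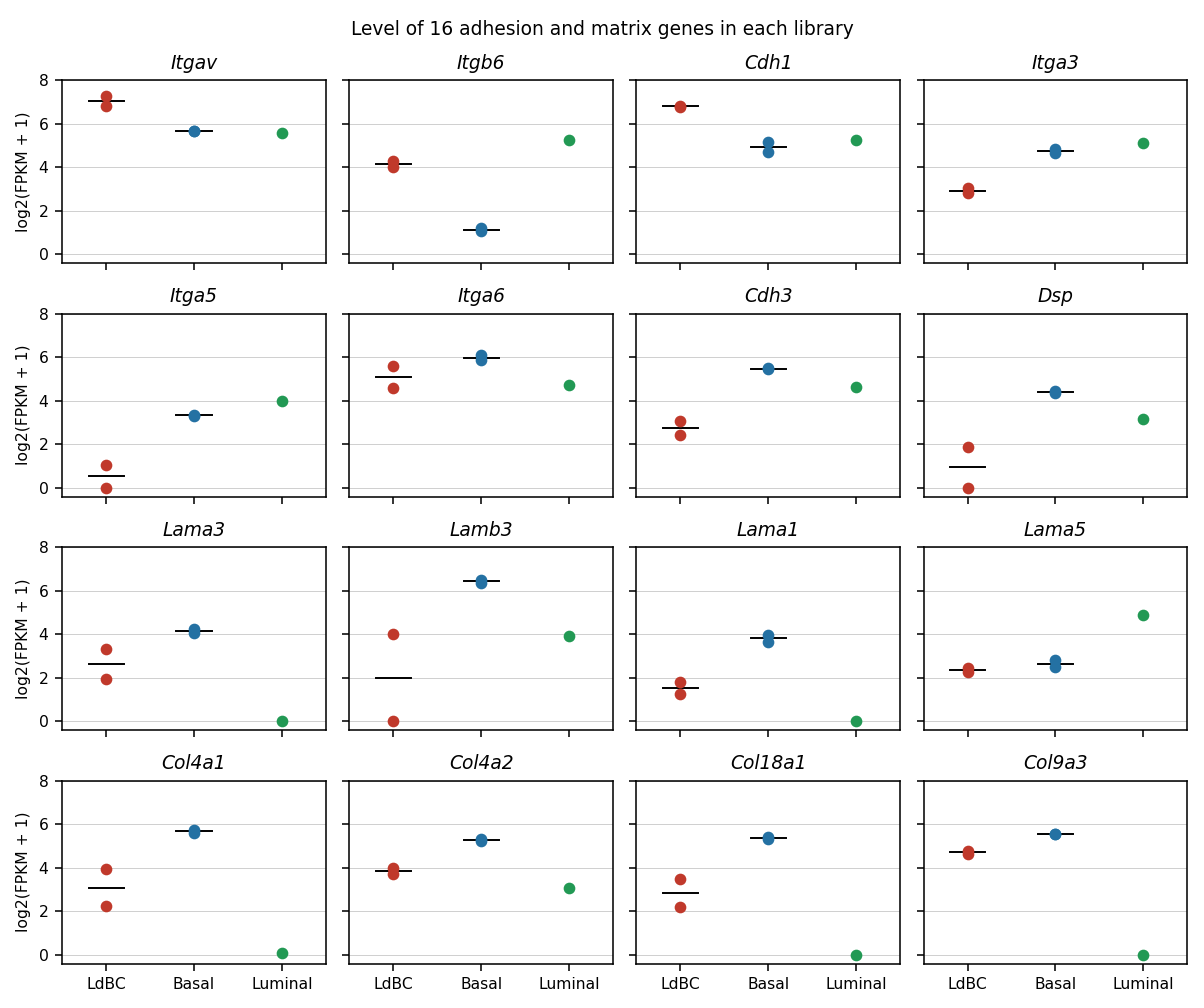
FPKM of 16 genes (one panel each, log2(FPKM + 1) scale) in the 5 libraries, with LdBC left, then basal, then luminal cells; each point is 1 library and black bars are means of 2. Itgav and Cdh1 are highest in LdBC (Cdh1 at 113 and 108), and Lamb3, Col4a1 and Cdh3 are highest in basal cells.

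Laminin chains were lower in LdBC or overlapped with basal cells. Of 9 tested chains, 0 were higher by the fold rule and 5 were lower, against 17.9% and 13% of all genes. Lama3 and Lamb3 encode an alpha and a beta chain of the laminin to which epithelial hemidesmosomes anchor. Lamb3 (chromosome 1, 193207699 to 193343878) had an FPKM of 0 and 15.1 in the LdBC libraries, 82.0 and 88.5 in the basal libraries and 14.4 in the luminal library. The LdBC libraries differed widely from each other but both lay far below the basal ones, with a difference of -4.43 (SE 1.51, limma adjusted p = 0.244). Lama3 had an FPKM of 8.89 and 2.8 in the LdBC libraries, 17.7 and 15.9 in the basal libraries and 0 in the luminal library, with a difference between LdBC and basal cells of -1.54 (SE 0.67, limma adjusted p = 0.328).

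The other laminin chains described here were low to moderate. Lama1, the alpha chain of the classical basement membrane laminin, had an FPKM of 1.42 and 2.45 in the LdBC libraries, 11.6 and 14.6 in the basal libraries and 0 in the luminal library. LdBC lay below basal cells by 2.28 on the log2 scale (difference -2.28, SE 0.51, limma adjusted p = 0.147). Lamb1 and Lamc1, the common beta and gamma chains, had 1.9 and 0.0431 (Lamb1) and 2.39 and 9.76 (Lamc1) in the LdBC libraries, against 7.61 and 8.72 (Lamb1) and 11.6 and 14.3 (Lamc1) in the basal libraries. Both were lower in LdBC by the fold rule, with differences of -2.40 (SE 0.70, limma adjusted p = 0.196) and -1.20 (SE 0.74, limma adjusted p = 0.472). Lama5, a broadly expressed alpha chain, was lowest in LdBC, at 4.52 and 3.87, close to basal cells at 6.09 and 4.58, and had an FPKM of 28.5 in the luminal library. Lama4, a chain common in vessels, and Lamb2 overlapped between LdBC and basal cells. Lamc3 stayed under the filter.

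Collagen chains were the largest family and none was higher in LdBC than in basal cells by the fold rule. Of 18 tested chains 12 were lower, against 17.9% of all genes higher and 13% lower. Their summed FPKM over 25 genes was 116 and 145 in the LdBC libraries, 345 and 342 in the basal libraries and 45.3 in the luminal library. Col4a1 and Col4a2 encode the main type IV collagen of basement membranes and start head to head on chromosome 8. Col4a1 (11198423 to 11312826) had an FPKM of 3.77 and 14.3 in the LdBC libraries, 47.9 and 52.7 in the basal libraries and 0.0689 in the luminal library. The LdBC libraries lay between the luminal and the basal ones, and the difference from basal cells was -2.59 (SE 0.72, limma adjusted p = 0.186). Col4a2 (11312805 to 11449287) had 12.3 and 14.8 in the LdBC libraries, 36.8 and 38.8 in the basal libraries and 7.52 in the luminal library, the same order with tighter pairs, and the difference was -1.42 (SE 0.30, limma adjusted p = 0.141). Col4a1 exceeded Col4a2 in both basal libraries, at ratios of 1.3 and 1.36, and was below it in LdBC, at 0.306 and 0.968, and in luminal cells, at 0.00916. Since the annotated genes overlap by 22 bases and the labels do not describe a stranded protocol, reads from that overlap cannot be assigned.

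The minor type IV chains and the other basement membrane collagens were mostly lower in LdBC than in basal cells too. Col4a5 had an FPKM of 2.34 and 8.45 in the LdBC libraries, 18.9 and 17.2 in the basal libraries and 12.1 in the luminal library, so LdBC was lowest, with a difference from basal cells of -1.76 (SE 0.67, limma adjusted p = 0.278). Its neighbour Col4a6 had 3.96 and 5.0 in the LdBC libraries, 9.24 and 6.09 in the basal libraries and 0 in the luminal library. Col18a1, a basement membrane collagen from which endostatin is cut, had 3.54 and 10.3 in the LdBC libraries, 41.7 and 38.9 in the basal libraries and 0 in the luminal library. The LdBC libraries were well below the basal ones, by 2.52 on the log2 scale (difference -2.52, SE 0.62, limma adjusted p = 0.162). Col17a1, the transmembrane collagen of hemidesmosomes, had 0 and 5.36 in the LdBC libraries, 19.8 and 20.9 in the basal libraries and 0 in the luminal library, with a difference of -3.08 (SE 1.09, limma adjusted p = 0.254). Col7a1, which forms anchoring fibrils below the basement membrane and is listed in a row joined with Mir711, had 3.43 and 4.46 in the LdBC libraries, 10.2 in each basal library and 0 in the luminal library.

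Type IX collagen, best known from cartilage, was present in both CD29hi populations. Col9a3 had an FPKM of 26.0 and 24.2 in the LdBC libraries, 46.2 and 46.4 in the basal libraries and 0 in the luminal library. The pairs were tight and apart, but the difference between LdBC and basal cells was -0.86 (SE 0.30, limma adjusted p = 0.254). Col9a2 had 8.02 and 15.9 in the LdBC libraries, 23.1 and 34.8 in the basal libraries and 0 in the luminal library. Col9a1 overlapped, at 3.62 and 10.6 in the LdBC libraries and 2.44 and 3.72 in the basal libraries. Col9a3 was the highest of the 3 chains in the LdBC and basal libraries, and all 3 were listed at 0 in the luminal library.

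Fibril-associated and fibrillar collagens were mostly low. Col14a1, a fibril-associated chain, had an FPKM of 0.836 and 0.404 in the LdBC libraries, 12.7 and 7.42 in the basal libraries and 0 in the luminal library (difference of LdBC from basal cells -2.74, SE 0.52, limma adjusted p = 0.129). Col16a1 was present throughout, at 31.9 and 23.4 in the LdBC libraries, 49.0 and 34.7 in the basal libraries and 11.8 in the luminal library. Col12a1 overlapped between LdBC and basal cells. Col11a1, Col5a2, Col6a1 and Col6a4 were lower in LdBC by the fold rule but reached an FPKM of only 5.9 in basal cells, and Col6a1 was listed at 0 in both LdBC libraries. Col1a2 and Col3a1, chains made mainly by fibroblasts, were under the filter, at 0 to 0.0672 in LdBC and 1.4 to 2.43 in basal cells. The sum of fibroblast markers lay the same way: 5 fibroblast genes outside the families summed to 29.5 and 142 in the LdBC libraries, 497 and 469 in the basal libraries and 305 in the luminal library. Of that sum Dcn made up 26.8 and 67.0 in the LdBC libraries, 275 and 268 in the basal libraries and 305 in the luminal library, and Postn made up 0 and 74.7 in the LdBC libraries, 210 and 199 in the basal libraries and 0 in the luminal library. Pdgfra went the other way in 1 library, at 2.79 and 0 in the LdBC libraries and 0.813 and 0.475 in the basal libraries, and Dpt was at 0 in basal replicate 2. In all, 3 and 2 of the 5 were listed at 0 in the LdBC libraries, 0 and 1 in the basal libraries and 4 in the luminal library. Their part in the lower collagen values was not tested. In libraries of pooled cells, fewer cells of a type and less RNA per cell cannot be told apart.

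**Figure D3:**
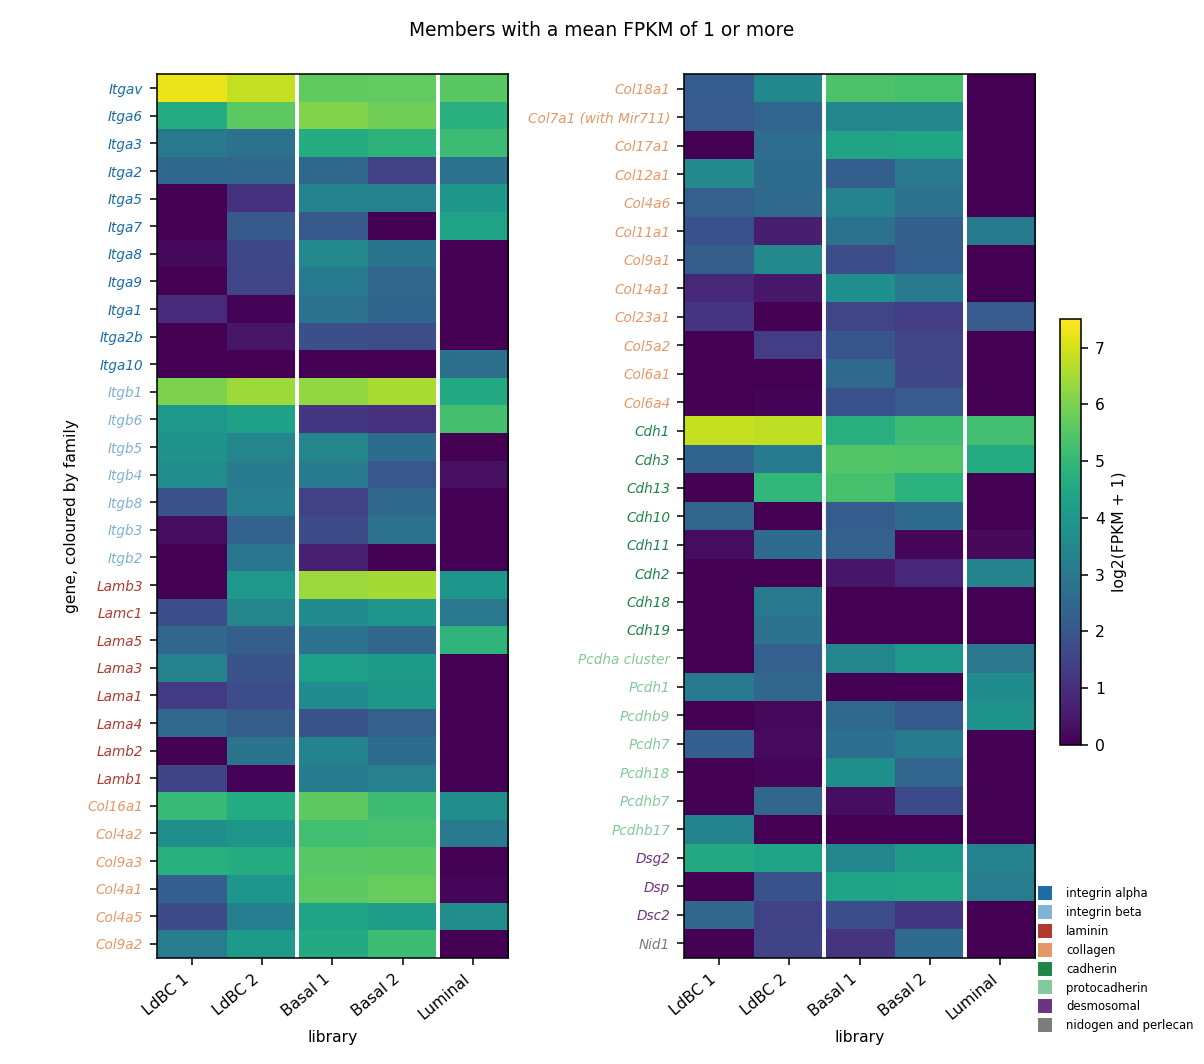
Heat map of log2(FPKM + 1) (colour) for 63 of the 64 family members past the filter, Itgb1 included (rows, grouped by family), in 5 libraries (columns, LdBC left, then basal, then luminal cells). Most collagen and laminin rows are highest in basal cells, and many rows are at 0 in the luminal library.

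The 2 cadherins with the highest values stood in opposite orders in LdBC and basal cells. Cdh1, E-cadherin (chromosome 8, 106603351 to 106670246), had an FPKM of 113 and 108 in the LdBC libraries, 24.8 and 34.9 in the basal libraries and 37.0 in the luminal library. Both LdBC libraries lay far above the other 3, and the difference from basal cells was 1.88 (SE 0.27, limma adjusted p = 0.123). Cdh3, P-cadherin (106510891 to 106557297 on the same chromosome and strand, 46053 bases from Cdh1), had an FPKM of 4.33 and 7.43 in the LdBC libraries, 44.0 and 42.6 in the basal libraries and 23.6 in the luminal library. Here the LdBC libraries were below the other 3, and the difference from basal cells was -2.72 (SE 0.38, limma adjusted p = 0.123). The ratio of Cdh1 to Cdh3 was 26.2 and 14.6 in the LdBC libraries, 0.562 and 0.821 in the basal libraries and 1.57 in the luminal library. Neither was called, and both were at an unadjusted p under 0.05.

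The other cadherins were unsteady. Cdh13, which lacks a cytoplasmic tail, had an FPKM of 0 and 30.4 in the LdBC libraries, 38.7 and 26.8 in the basal libraries and 0 in the luminal library, so LdBC and basal cells overlapped. Cdh2, N-cadherin, was listed at 0 in both LdBC libraries and had 0.351 and 0.821 in the basal libraries and 9.27 in the luminal library. Cdh10, Cdh11, Cdh18 and Cdh19 stayed at or below an FPKM of 7.24 and overlapped between LdBC and basal cells. In all, 1 of 8 tested cadherins was higher in LdBC than in basal cells by the fold rule and 1 was lower. These shares, 12.5% each, were not above those of all genes, 17.9% higher and 13% lower.

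Desmosomal genes divided. Dsp, desmoplakin, which ties desmosomes to keratin (chromosome 13, 38151294 to 38198577), had an FPKM of 0 and 2.7 in the LdBC libraries, 19.3 and 20.6 in the basal libraries and 8.07 in the luminal library. LdBC was the lowest of the 3 populations, with a difference from basal cells of -3.45 (SE 0.82, limma adjusted p = 0.157). Dsg2, a desmosomal cadherin, had 22.6 and 19.6 in the LdBC libraries, 9.97 and 16.0 in the basal libraries and 9.06 in the luminal library, with a difference from basal cells of 0.69 (SE 0.40, limma adjusted p = 0.441). Dsc2, its partner, overlapped.

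Protocadherins, which act in adhesion between like cells, best known from neurons, were low and variable. Pcdh1, found at epithelial junctions, had an FPKM of 7.35 and 4.58 in the LdBC libraries, 0.0264 and 0 in the basal libraries and 11.6 in the luminal library. LdBC and luminal cells had it and basal cells had almost none, with a difference between LdBC and basal cells of 2.75 (SE 0.50, limma adjusted p = 0.128). Pcdh18 had 0 and 0.0726 in the LdBC libraries, 12.5 and 4.49 in the basal libraries and 0 in the luminal library. Pcdh7 had 3.71 and 0.169 in the LdBC libraries, 5.72 and 7.62 in the basal libraries and 0 in the luminal library. The row that joins the Pcdha cluster had 0 and 3.89 in the LdBC libraries, 9.87 and 15.0 in the basal libraries and 6.82 in the luminal library, and how reads were divided among near-identical protocadherin exons is not stated in the sources used here. Of 7 tested protocadherin rows, 1 was higher in LdBC than in basal cells by the fold rule and 4 were lower, the other one being Pcdhb9. Among all tested genes 17.9% were higher and 13% lower. Nid1, a nidogen, overlapped between the groups, and Hspg2, perlecan, was under the filter. The 20 family members under the filter (7 collagens, 7 Pcdhb genes, Itga11, Itgae, Itgb7, Lamc3, Cdh6 and Hspg2) reached a highest FPKM of 1.12 to 3.55. With them included, 4 of 83 members were higher in LdBC and 35 lower by the fold rule, against 15.7% and 13.5% of all genes.

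**Figure D4:**
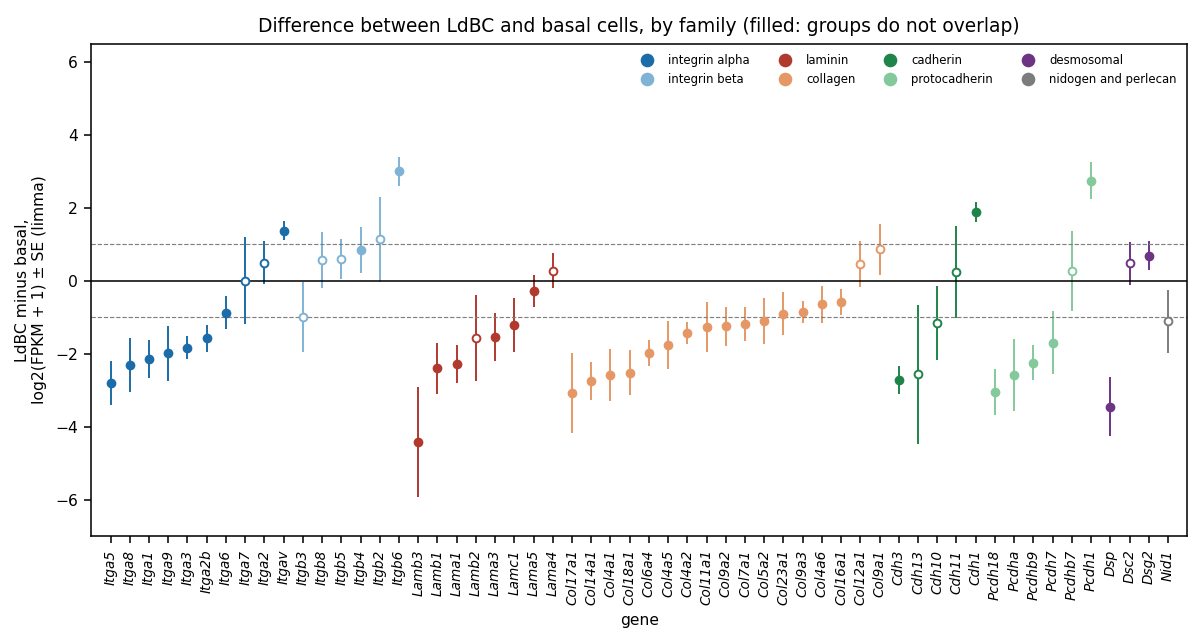
Difference between LdBC and basal cells in log2(FPKM + 1) (y axis) for 56 members in which neither group is at 0 throughout (x axis, coloured by family), with error bars of 1 SE from limma. Filled points mark groups that do not overlap, and dashed lines mark a difference of 1 either way. Itgb6 at 3.00 lies at the high end and Lamb3 at -4.43 at the low end.

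Set against luminal cells, LdBC had more E-cadherin and Itgav and less Cdh3, none of which was called. By the fold rule 4 of 6 tested beta chains were higher in LdBC (Itgb3, Itgb4, Itgb5 and Itgb8) and 1 was lower. Of 11 tested alpha chains, 1 was higher and 4 (36.4%) were lower. Over all genes 27.3% were higher and 30.4% lower, so the share of lower alpha chains was near that of all genes. Of those 4 beta chains, Itgb4 was at 0.228 in the luminal library and the other 3 were listed at 0 there. This comparison and the one with basal cells share the LdBC libraries, and it rests on 1 luminal library, whose spread was assumed to be that of the others. One member of 63, Col9a3, was called by limma, higher in LdBC (adjusted p = 0.044), against 4.01% of all genes (2.06% higher and 1.95% lower). Its FPKM was 26.0 and 24.2 in the LdBC libraries and 0 in the luminal library, where it is only listed at 0, and no gene was called without any 1 of the LdBC or basal libraries. Without a filter its adjusted p was 0.0571. At an unadjusted p under 0.05, 14 members were higher and 7 lower in LdBC, against 16.7% and 14.5% of all genes (31.2% in either direction). By the fold rule 22 members were higher in LdBC, against 27.3% of all genes, and 14 were lower, against 30.4%. In 15 of the 22 the luminal library was at 0. Among the 20 members with a mean FPKM of at least 1 in both groups, 4 were higher (20.0%, against 10% of all genes) and 9 lower (45.0%, against 42.2%).

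The 4 were Cdh1, Itgav, Col16a1 and Dsg2. Cdh1 was 1.55 higher than in luminal cells (SE 0.33, limma adjusted p = 0.0827), and Itgav 1.46 higher (SE 0.32, limma adjusted p = 0.0838). Among the lower ones, Itga3 differed by -2.21 (SE 0.40, limma adjusted p = 0.0716), Itga5 by -3.45 (SE 0.74, limma adjusted p = 0.0824) and Lama5 by -2.51 (SE 0.53, limma adjusted p = 0.0818). Cdh3 differed by -1.87 (SE 0.47, limma adjusted p = 0.0987) and Itgb6 by -1.14 (SE 0.50, limma adjusted p = 0.222). Taking both comparisons, 2 members were higher in LdBC than in each of the other populations by the fold rule, Cdh1 and Itgav, against 7.57% of all genes. The 8 lower than in each were Cdh3, Itga3, Itga5, Dsp, Col4a5, Col11a1, Pcdhb9 and the Pcdha row, against 4.15% of all genes. After either other scaling Itgav fell just short of the fold rule against basal cells.

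Basal cells set against luminal cells give the frame for these values. Of 63 members 5 were called, 3 higher and 2 lower in basal cells, against 8.31% of all genes (3.23% higher and 5.08% lower). At an unadjusted p under 0.05 the counts were 24 higher and 5 lower, against 16.5% and 21.6% of all genes (38.1% in either direction). Itgb6 was called lower in basal cells (1.32 and 1.09, against 37.8 in the luminal library), with a difference of -4.14 (SE 0.50, limma adjusted p = 0.0404), and its adjusted p was 0.0529 after median-of-ratios scaling. Itga10 was also called lower (adjusted p = 0.0441), with both basal libraries listed at 0. Col18a1, Col9a2 and Col9a3 were called higher (adjusted p = 0.0458, 0.0446 and 0.0349), with the luminal library listed at 0. After median-of-ratios scaling the adjusted p of Itga10 was 0.0524. Without a filter it was 0.0547 for Itga10, 0.0537 for Col18a1 and 0.0517 for Col9a2, and with a pseudocount of 5 it was 0.0528 for Col9a2. None of the 5 calls held without any 1 of the LdBC or basal libraries, when 0 genes were called in all. By the fold rule 37 members were higher in basal cells, against 31.8% of all genes, and 7 were lower, against 36.6%. In 30 of the 37 the luminal library was at 0. Among the 22 members with a mean FPKM of at least 1 in both groups, 5 were higher (22.7%, against 8.05% of all genes) and 4 lower (18.2%, against 52.2%). The 5 were Lamb3, Col4a2, Col16a1, Itga6 and Dsp, and the 4 were Itgb6, Lama5, Itga7 and Pcdhb9. After median-of-ratios scaling the fold rule took 43 members higher and 6 lower, against 37.4% and 24.5% of all genes.

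Genes that work with the families were read from lists of textbook partners. In LdBC against basal, the fold rule took 2 higher and 2 lower of 12 hemidesmosome and basement membrane partners, 1 and 4 of 18 genes that link integrins to actin, 3 and 3 of 13 catenins and desmosome plaque genes, 1 and 4 of 11 collagen processing genes, and 4 and 3 of 9 other integrin ligands. The share over all genes was 17.9% higher and 13% lower, and limma called 0 of these genes. The 2 lower hemidesmosome and basement membrane partners were Dag1 and Col17a1. Of these, Col17a1 is itself a family member and is already counted among the lower collagens. Dag1, dystroglycan, a laminin receptor outside the integrins, had an FPKM of 10.9 and 10.7 in the LdBC libraries, 40.1 and 37.1 in the basal libraries and 31.3 in the luminal library. The 2 higher genes of that list were Lgals3 and Plec. Lgals3 had 1040 and 618 in the LdBC libraries, 15.0 and 9.47 in the basal libraries and 279 in the luminal library. Plec had 22.3 and 20.6 in the LdBC libraries, 10.4 and 7.66 in the basal libraries and 27.6 in the luminal library. Fermt1, kindlin-1, which activates integrins, had 42.2 and 23.3 in the LdBC libraries, 110 and 114 in the basal libraries and 0 in the luminal library. Zyx, zyxin, a focal adhesion protein, ran the other way, at 142 and 102 in the LdBC libraries, 52.6 and 49.0 in the basal libraries and 0.0658 in the luminal library. P4ha1, which hydroxylates collagen prolines, had 0.19 and 0.125 in the LdBC libraries, 9.36 and 11.5 in the basal libraries and 0 in the luminal library. P4ha2, of the same list, ran the other way. It had 8.69 and 2.31 in the LdBC libraries, 0.565 and 1.04 in the basal libraries and 24.0 in the luminal library. Of the other integrin ligands, Spp1 (osteopontin), Mfge8 (milk fat globule protein), Cyr61 and Ltbp1 were higher in LdBC by the fold rule. Postn, Fbn1 and Ctgf of the same list were lower. Fbn1 (fibrillin) had 0 and 0.0495 in the LdBC libraries, 5.21 and 6.12 in the basal libraries and 0 in the luminal library. Spp1 had 81.0 and 182 in the LdBC libraries and was listed at 0 in the other 3 libraries. Mfge8 had 1870 and 1100 in the LdBC libraries, 331 and 401 in the basal libraries and 315 in the luminal library. In the desmosome plaque, Pkp1 had 0.0673 and 9.83 in the LdBC libraries, 34.3 and 27.2 in the basal libraries and 0 in the luminal library, while Pkp3 had 56.2 and 103 in the LdBC libraries, 19.7 and 14.0 in the basal libraries and 0.446 in the luminal library.

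Of the other cell types that the gate could hold, endothelial, pericyte, immune and Schwann cells had low marker sums. In each library these lay far below the higher of the basal and luminal marker sums. Fibroblast markers, given above, reached more, at 497 and 469 in the basal libraries and 305 in the luminal library. Summed over 8 endothelial genes the FPKM was 6.44 and 6.85 in the LdBC libraries, 169 and 0.313 in the basal libraries and 19.5 in the luminal library, so basal replicate 1 stood apart. Over 7 pericyte genes it was 19.7 and 16.0 in the LdBC libraries, 42.9 and 33.2 in the basal libraries and 14.4 in the luminal library, and 5 and 3 of these genes were at 0 in the LdBC libraries, 0 and 0 in the basal libraries and 6 in the luminal library. Over 5 immune genes it was 26.6 and 16.7 in the LdBC libraries, 20.3 and 5.93 in the basal libraries and 33.1 in the luminal library, and over 3 Schwann cell genes 69.5 and 75.8 in the LdBC libraries, 74.7 and 71.3 in the basal libraries and 15.0 in the luminal library. The pericyte sum was higher in both basal libraries, but its genes were mixed: Rgs5 had 0 and 5.24 in the LdBC libraries and 20.8 and 16.1 in the basal libraries, whereas Notch3 had 6.46 and 8.47 in the LdBC libraries and 0.201 and 0.0115 in the basal libraries. The Schwann genes were mixed too, so their sum is not read as a share of Schwann cells. Sox10 had 37.0 and 35.9 in the LdBC libraries and 22.7 and 29.7 in the basal libraries. Mbp had 24.3 and 26.5 in the LdBC libraries and 9.63 and 11.4 in the basal libraries. Cnp had 8.26 and 13.4 in the LdBC libraries and 42.4 and 30.2 in the basal libraries. The part of these cell types in the results was not tested. Without basal replicate 1, LdBC had 7 members above and 28 below basal replicate 2 by the fold rule, against 21.4% and 14.2% of all genes.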

How the data were processed

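RNA was sequenced from 5 libraries of about 50 sorted cells. The submitters' processing notes name mm10, TopHat2 2.0.4, Cufflinks 2.0.2 and Cuffdiff 2.0.2; neither annotation nor depth is stated. Values deposited by the authors are log2(FPKM + 1), that is, FPKM on a log2 scale whose base was read from the values. Of 12311 rows, 18 whose names had become dates were left out. FPKM are not counts, so limma 3.58.1 (R 4.3.3) with an intensity trend was fitted to log2(FPKM + 1) with all 5 libraries, over 10626 genes with a mean FPKM of at least 1 (2 residual degrees of freedom, prior 1.65). Tests were two-sided with Benjamini-Hochberg adjustment, with calls at an adjusted p under 0.05. Fold changes of low genes are understated by the pseudocount of 1. Where a group is at 0 throughout, no difference is printed. The fold rule needs no overlap and a difference of at least 1. Positions are GENCODE's on GRCm38. The rule for named genes took the 5 genes given with the list and, per family, comparison and direction, up to 4 with the largest difference and a mean FPKM of at least 5 in the higher group. Other members with values (such as Col4a2, Col16a1, Col4a6, Col7a1 and Itga2b) fall outside it and were chosen after their values were seen. The values of 1 member are not reported here. Members and lists were chosen with earlier results of these data known. Alternatives were the pseudocount, the filter, 2 other scalings, limma without the trend, a replicate block and each library left out.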

Additional observations from a re-analysis of the deposited data

How the results depend on the processing

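For LdBC against basal cells, 0 members were called under every alternative run, although without the luminal library 51 of all genes were called higher and 5 lower, against 1 and 0. The members lower by the fold rule numbered 29, and 18 with a pseudocount of 5, 16 with a mean FPKM of at least 5, 18 with at least 1 in both groups (chosen after seeing the data), 34 and 33 after median-of-ratios scaling and quantile normalization, and 28 to 31 with 1 library left out. The higher ones numbered 4, and 4 to 11 with 1 library left out. After median-of-ratios scaling and quantile normalization the higher members numbered 3 and 5. Median-of-ratios scaling moved the median of all genes to -0.09 from 0.20 in LdBC against basal, to 0.27 from 0.01 in LdBC against luminal and to 0.37 from -0.13 in basal against luminal, and quantile normalization moved it to 0.01, 0.07 and 0.08. The members' median in LdBC against basal was -1.11, -1.34 and -1.27 in these 3 scalings, and -0.72 without LdBC replicate 1.

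For LdBC against luminal cells, 1 member was called, and 7 with a pseudocount of 0.1, 2 with a pseudocount of 5, 0 without a filter, 4 without the trend and 0 with 1 LdBC or basal library left out. The fold rule took 22 higher and 14 lower, and 12 and 9 with a pseudocount of 5, 14 and 9 with a mean FPKM of at least 5, and 4 and 9 with at least 1 in both groups. For basal against luminal cells, 5 members were called, and 18 with a pseudocount of 0.1, 2 without a filter, 9 with a mean FPKM of at least 5, 8 without the trend and 0 with 1 LdBC or basal library left out. The fold rule took 37 higher and 7 lower, and 24 higher with a pseudocount of 5, 17 and 3 with a mean FPKM of at least 5, and 5 and 4 with at least 1 in both groups. All genes called were 343 higher and 540 lower, 352 and 218 after median-of-ratios scaling, and 428 and 359 after quantile normalization. Of 1420 alternative values of single genes, 16 changed sign, 31 lost a call and 23 gained one; the cause was not tested.

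Signs changed for LdBC against basal in Itga2 (-0.04 to 1.03 with 1 library left out), Itga7 (-1.06 to 1.05) and Itgb8 (-0.11 to 1.22). For LdBC against luminal they changed in Itga2 (0.0 after median-of-ratios scaling), Itga6 (-0.14 to 0.87 with 1 library left out), Pcdh18 (-0.11 after quantile normalization) and, with 1 library left out, Lamb3 (-3.95 to 0.06) and Lamc1 (-1.25 to 0.42). For basal against luminal they changed after median-of-ratios scaling and quantile normalization in Cdh1 (0.45 and 0.6), Itga3 (0.39 and 0.56) and Itga5 (0.08 and 0.12), and in Col11a1 after median-of-ratios scaling (0.11).

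Whether LdBC and basal replicates with the same number were paired is not known from the labels. Their deviations had a correlation of 0.0115 over 10626 genes. A single correlation of this kind cannot show that pairing is absent. The replicate block was fitted to the LdBC and basal libraries alone, with the luminal library left out. With it 0 members were called, and 18 of 63 had an unadjusted p under 0.05. Without the luminal library and without a block the count was 25 of 61, after a filter on the libraries kept. It was 22 of 63 in the fit of all 5 libraries. The fold rule does not use the block, so its 4 higher and 29 lower could not change. Depth is unknown, so no counting limit is given for a value listed at 0.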
